A study of Homo sapiens with 12 samples.

Results

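The genes described here are named for the mitochondrial ribosome and for the translocases that carry proteins into mitochondria. The genes were chosen by symbol: every protein-coding gene whose symbol starts with MRPL, MRPS, TIMM or TOMM followed by a digit. A symbol alone does not show that a protein is part of the complex or subunit it is named for. The rule found 103 genes among 61552 gene identifiers: 49 named for the large ribosomal subunit (MRPL), 29 for the small subunit (MRPS), 15 for inner membrane import (TIMM) and 10 for outer membrane import (TOMM). The gene families were picked from the comparison of EHMT1 siRNA with scrambled siRNA, with its results known. Counts, medians and adjusted p-values of the members in that comparison are therefore a description of how these genes behaved, and nothing is read from them about the families as a whole.

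Mitochondria keep a small genome that encodes a few proteins of the respiratory chain, and a ribosome of their own translates them. The proteins of that ribosome are encoded in the nucleus, made in the cytosol and imported. Precursors are recognised by receptors of the TOM complex in the outer membrane and pass through its TOMM40 channel. The small TIMM chaperones of the intermembrane space then guide membrane proteins onward, while the TIM23 complex of the inner membrane takes in precursors bound for the matrix and the TIM22 complex inserts carrier proteins.

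All libraries came from RD cells, an established human line of embryonal rhabdomyosarcoma, a tumour with features of immature skeletal muscle; the labels call its genotype FN-RMS. The cells received an siRNA against EHMT1 (n = 3 libraries) or a scrambled siRNA (n = 3 libraries) with Lipofectamine RNAiMAX, and RNA was taken at 48 h. EHMT1, also called GLP, is a histone H3 lysine methyltransferase. Nothing in the labels says that the libraries of a group came from different cultures, so the spread behind each p-value could be purely technical. A second experiment with a SOX8 siRNA was not analysed here.

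Gene counts ranged from 40639655 to 47258481 per library. EHMT1 transcripts stood at 55.1 ± 2.26 CPM (counts scaled to library size) with EHMT1 siRNA and 139 ± 14.7 CPM with scrambled siRNA (SD, n = 3 each), with no overlap between the groups. Of 6 skeletal muscle markers 5 reached 1 CPM, with summed levels of 1197 to 1254 CPM with EHMT1 siRNA and 1075 to 1219 CPM with scrambled siRNA; MYF5 was at 0 in every library. None of 3 epithelial, 3 endothelial and 3 blood markers reached 1 CPM, and of 3 neural markers SYP alone did (neural sums of 5.59 to 6.20 CPM with EHMT1 siRNA and 4.42 to 4.62 CPM with scrambled siRNA). The part of any of these in the results was not tested. Scrambled library 2 stood apart from the other scrambled libraries, at 36.4 on the first principal component against 16.0 and 9.16 for scrambled libraries 1 and 3, while the EHMT1 siRNA libraries lay between -21.6 and -19.6. In it 5.41% of gene counts came from the mitochondrial genome, against 4.29% to 4.83% in the other 5 libraries.

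Of the 103 genes, 95 had a promoter window in the RefSeq promoter table (GRCh38.p14, 250 bases before to 50 bases after the start). The letters CCGGAAG, the core that ETS factors such as GABPA recognise, were searched on both strands. They occurred in 40 of the 95 windows (42.1%), against 14.2% of 15843 windows of protein-coding genes and 10.7% of all 27305 windows. The share was 38.6% of 44 large subunit windows, 42.9% of 28 small subunit windows, 42.9% of 14 inner membrane import windows and 55.6% of 9 outer membrane import windows. AAGATGGCG, the core of YY1 sites, occurred in 15 of the 95 windows (15.8%), against 2.74% of protein-coding windows. GCATGCGC, the core of NRF1 sites, occurred in 9 of the 95 (9.47%), against 4.26% of protein-coding windows, and the E-box CACGTG in 11 (11.6%), against 8.88%. The letters AAG end the first motif and begin the YY1 core, so both can be counted on shared bases, and windows of genes that start back to back share sequence; the shares carry no test. A match describes letters only and is not a binding site.

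With respect to the response, CCGGAAG was present in 4 of the 11 windows of genes called lower with EHMT1 siRNA (36.4%) and in 33 of the 80 windows of tested genes that were not called (41.2%). Stretches upstream of 4 called genes are shown so that windows with and without the motif can be compared, with CCGGAAG in capitals (on the opposite strand it reads CTTCCGG). They were limited to bases that lie in no annotated transcript. MRPS34 (chr16:1773156-1773206, minus strand) holds the motif in the opposite orientation at both ends of a 51-base stretch, 71 and 29 bases before the start. MRPS18A (chr6:43687792-43687941, minus strand) holds it 31 bases before the start and has the YY1 letters outside the stretch shown. MRPL24 (chr1:156741132-156741179, minus strand) and TOMM40 (chr19:44891070-44891219, plus strand) hold none of the 4 motifs in their whole windows.
MRPS34: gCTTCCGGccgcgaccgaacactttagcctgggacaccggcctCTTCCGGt
MRPS18A: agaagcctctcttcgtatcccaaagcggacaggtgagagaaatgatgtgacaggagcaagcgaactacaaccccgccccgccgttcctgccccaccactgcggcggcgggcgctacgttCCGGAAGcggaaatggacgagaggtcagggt
MRPL24: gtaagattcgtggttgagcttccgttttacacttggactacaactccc
TOMM40: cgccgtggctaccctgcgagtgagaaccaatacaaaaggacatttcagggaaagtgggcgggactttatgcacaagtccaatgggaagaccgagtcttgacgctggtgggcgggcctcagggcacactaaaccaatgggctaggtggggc

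These genes often begin next to another gene. A protein-coding gene on the opposite strand started within 1000 bases of 37 of the 103 (35.9%), against 2348 of 19877 protein-coding genes (11.8%), taking as start the outermost start of a gene's protein-coding transcripts. The share was 22 of 49 for the large subunit (44.9%), 8 of 29 for the small subunit (27.6%), 6 of 15 for inner membrane import (40%) and 1 of 10 for outer membrane import (10%). MRPL46 and MRPS11, 1 protein of each subunit, form such a pair, with starts 34 bases apart.

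The transcripts differed widely in level. Per kb of the transcript of median length, the median gene of the large subunit stood at 41.9 CPM per kb with EHMT1 siRNA and 45.8 with scrambled siRNA. That of the small subunit was 32.2 CPM per kb with EHMT1 siRNA and 36.2 with scrambled siRNA, that of inner membrane import 34.6 with EHMT1 siRNA and 36.9 with scrambled siRNA, and that of outer membrane import 39.7 with EHMT1 siRNA and 38.9 with scrambled siRNA. The highest levels per kb were those of TOMM7, a small subunit of the TOM complex (206 CPM per kb with EHMT1 siRNA and 201 with scrambled siRNA), MRPL51 (184 with EHMT1 siRNA, 192 with scrambled), TIMM13 (124 with EHMT1 siRNA, 173 with scrambled) and MRPS16 (146 with EHMT1 siRNA, 144 with scrambled). Next in their classes came MRPL30 (124 with EHMT1 siRNA, 135 with scrambled), TOMM40 (100 with EHMT1 siRNA, 136 with scrambled), MRPS15 (89.4 with EHMT1 siRNA, 95.0 with scrambled) and TIMM23 (90.5 with EHMT1 siRNA, 92.6 with scrambled).

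At the low end, 3 genes were not tested. TOMM6, a small TOM subunit, and MRPS5, a small subunit protein, had 0 counts in all 6 libraries, and MRPL53 had 1 count, in scrambled library 3. A level of 3 counts corresponds to 0.0641 to 0.0751 CPM, which covers counting error only. All exon bases of TOMM6 (100%) lie within another annotated gene, as do 45.2% of those of MRPL53 and 8.2% of those of MRPS5. Among the tested genes 10 averaged under 10 CPM with scrambled siRNA, such as MRPS24 (0.393 ± 0.107 CPM with EHMT1 siRNA and 0.410 ± 0.0527 CPM with scrambled siRNA; SD, n = 3 each) and MRPL2 (0.633 ± 0.106 CPM with EHMT1 siRNA and 0.605 ± 0.189 CPM with scrambled siRNA). Reads that fit more than 1 gene were not counted, so the 0 counts of TOMM6 do not show that its transcript was absent. For the other genes, the part of overlapping genes in these low levels was not tested. In all, 32 of the 100 tested genes had at least 10% of their exon bases in another gene. Under 80% of the strand counts lay on the gene's own strand for 7 of the 100, such as MRPS22 (32.3%). Of the 103, 43 had named pseudogenes, 100 in number. Levels of all such genes are uncertain.

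Summed over its tested genes, each class stood lower with EHMT1 siRNA in each of its 3 libraries than in any scrambled library; for outer membrane import this rested on 1 gene, TOMM40. Inner membrane import genes summed to 767.9, 733.6 and 751.3 CPM in EHMT1 siRNA libraries 1, 2 and 3, against 852.5, 863.2 and 828.3 CPM in scrambled libraries 1, 2 and 3, which is 88.6% of the scrambled mean. Outer membrane import genes summed to 699.2, 662.3 and 691.1 CPM with EHMT1 siRNA, against 773.6, 728.2 and 739.9 CPM with scrambled siRNA (91.6%). TOMM40 made up 61.0 of the 63.0 CPM by which the outer membrane means differed. Without it the sums were 523.7, 496.7 and 517.2 CPM with EHMT1 siRNA, against 547.8, 479.5 and 516.3 CPM with scrambled siRNA, and the groups overlapped. Leaving out the called genes of inner membrane import, in the same way after their values were seen, gave 451.4, 433.3 and 436.8 CPM with EHMT1 siRNA, against 465.6, 492.1 and 449.4 CPM with scrambled siRNA, which also overlap.

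Small subunit genes summed to 1213, 1170 and 1208 CPM with EHMT1 siRNA, against 1328, 1275 and 1259 CPM with scrambled siRNA (93.0%). Large subunit genes summed to 2226, 2185 and 2212 CPM with EHMT1 siRNA, against 2367, 2331 and 2285 CPM with scrambled siRNA (94.8%). Without their called genes the ribosomal sums were 95.8% of the scrambled mean for the small subunit and 96.2% for the large subunit, and neither overlapped between the groups. Both ribosomal sums separated the groups by less, relative to their level, than the inner membrane import sum. RNA of whole cultures was measured, so less RNA per cell and a smaller number of cells with such RNA cannot be told apart.

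**Figure D1:**
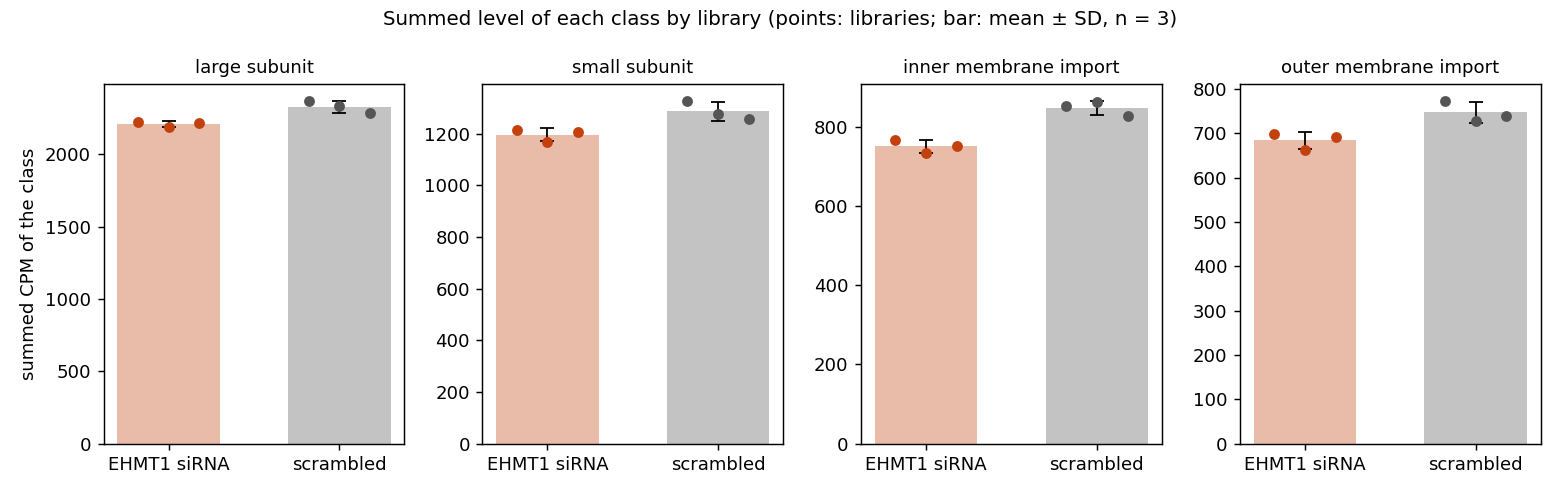
Summed CPM (y axis, from 0) of each of the 4 classes in each library (points), with bars at the mean and error bars of 1 SD (n = 3), EHMT1 siRNA on the left and scrambled siRNA on the right of each panel. Every EHMT1 siRNA point lies below every scrambled point of its class, with means of 751.0 and 848.0 CPM for inner membrane import.

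Gene by gene the differences were small and mostly in the same direction. The log2 fold change, EHMT1 siRNA over scrambled siRNA, was below 0 for 79 of the 100 tested genes: 37 of 48 large subunit, 23 of 28 small subunit, 13 of 15 inner membrane import and 6 of 9 outer membrane import genes. Over all 18646 genes tested it was below 0 for 9285. The median log2 fold change was -0.08 for the large subunit, -0.08 for the small subunit, -0.17 for inner membrane import and -0.12 for outer membrane import, against 0.00 over all genes tested. The outer membrane median turned on single libraries: it was 0.02 without scrambled library 1, with 4 of 9 genes below 0, and -0.20 without scrambled library 2, with 8 of 9.

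Few single genes passed the test. With edgeR's quasi-likelihood test and Benjamini-Hochberg adjustment over all genes, at an adjusted p threshold of 0.05, 13 of the 100 were called, 12 lower and 1 higher with EHMT1 siRNA; over all genes 12.4% were called, 6.54% lower and 5.81% higher. Of protein-coding genes alone, 8.49% were called lower and 6.99% higher. By class, 3 of 48 large subunit genes were lower (6.25%), 4 of 28 small subunit genes (14.3%), 4 of 15 inner membrane import genes (26.7%) and 1 of 9 outer membrane import genes (11.1%). All libraries of the groups were apart for 26 genes with EHMT1 siRNA below and for 2 with it above, against 15.5% and 15.4% of all genes. Of the 12 lower calls, 5 held whichever library was left out: TIMM13, TOMM40, MRPS27, MRPL24 and MRPS34. Without scrambled library 2, 22 genes were lower, including 11 of the 12, and so were 1923 of 19173 over all genes. Without EHMT1 siRNA library 2, 5 were lower, and so were 484 of 19087 over all genes. Just past the threshold lay MRPS2 (log2 fold change -0.24, edgeR adjusted p = 0.0505) and TIMM10B (-0.21, edgeR adjusted p = 0.0582). MRPL48 (-0.21, edgeR adjusted p = 0.0583) lay there too, and these genes were named after their values were seen. Of the exon bases of MRPS2, 14.4% overlap other genes. Counted only on the strand that held most strand counts, MRPS2 was at -0.11 and TIMM10B at -0.20, neither called. On that strand MRPL48 was called lower, at -0.22.

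**Figure D2:**
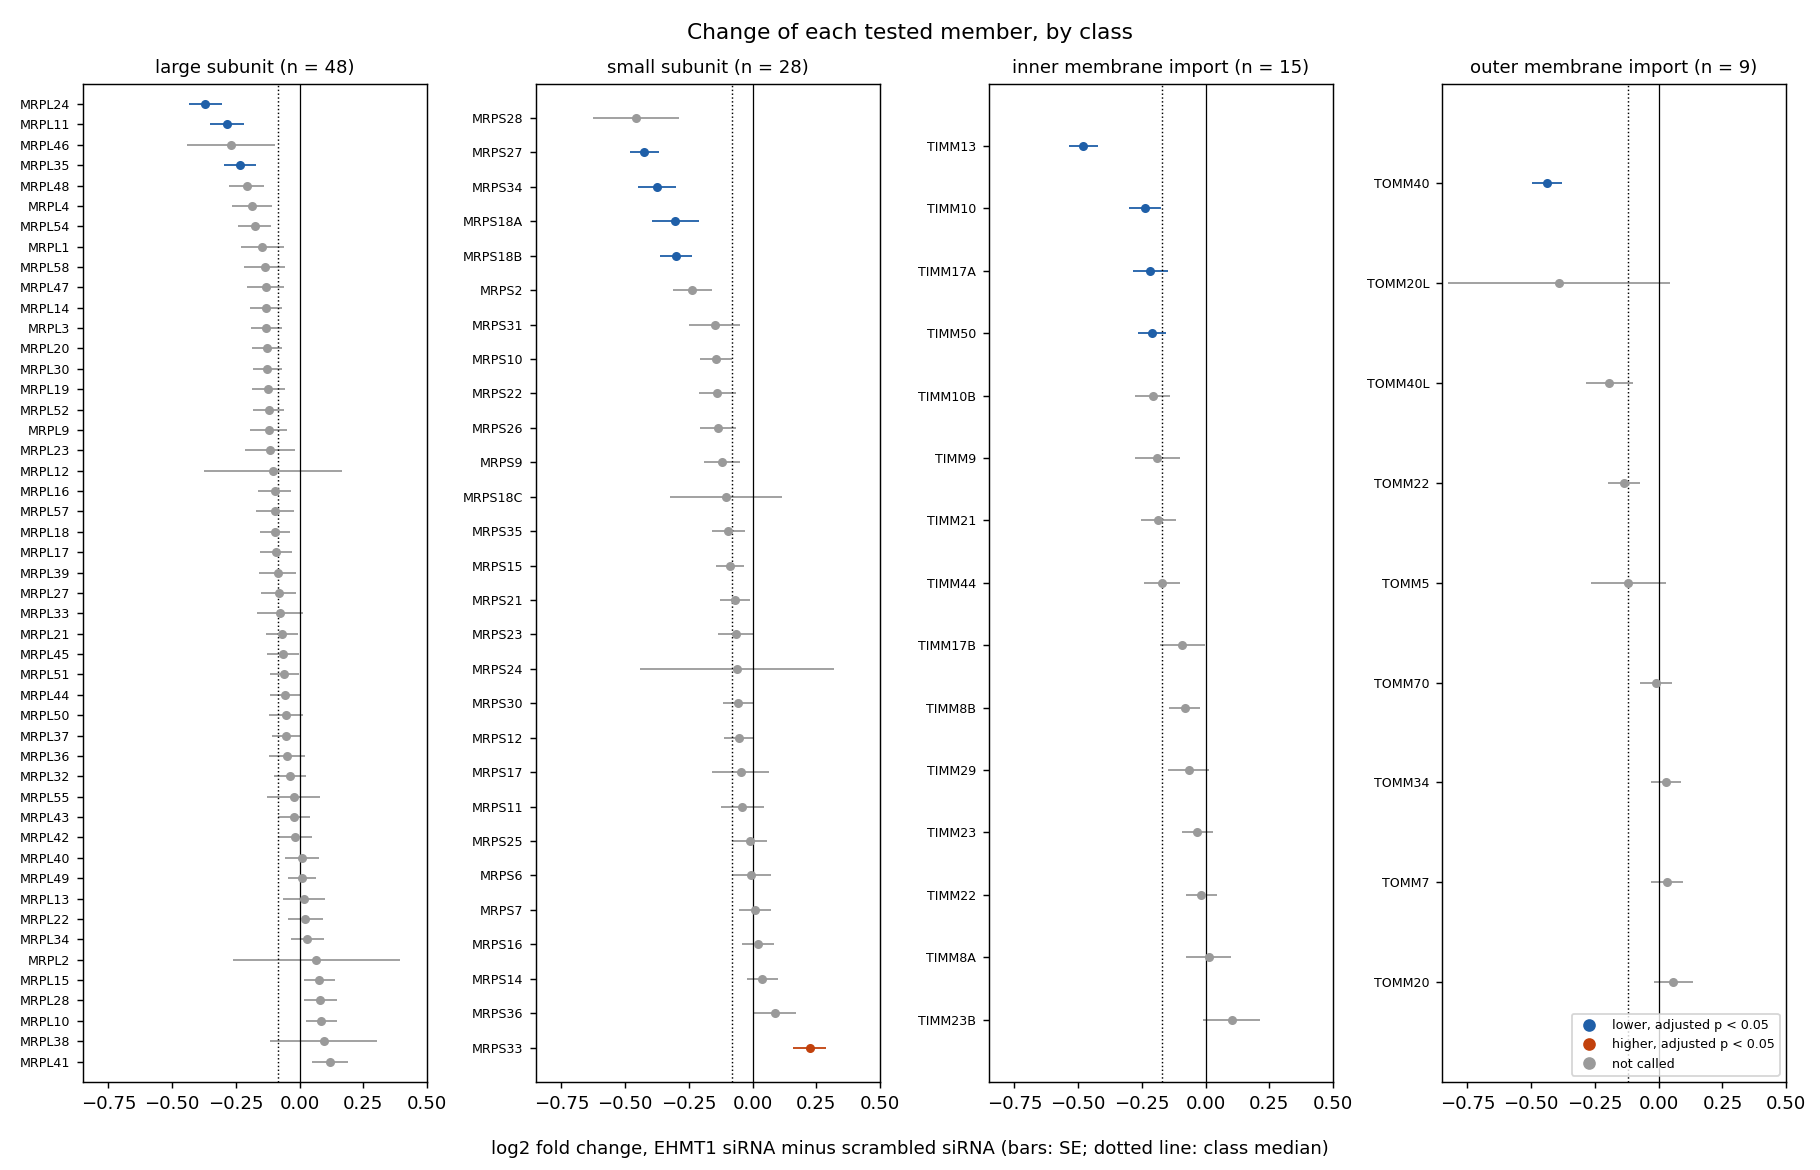
Log2 fold change (x axis, EHMT1 siRNA minus scrambled siRNA) of all 100 tested genes by class, with bars of 1 SE; blue and orange points were called lower and higher by edgeR at an adjusted p under 0.05, and the dotted line is the class median. Most points lie left of 0, and the called ones reach -0.48 in TIMM13.

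**Figure D3:**
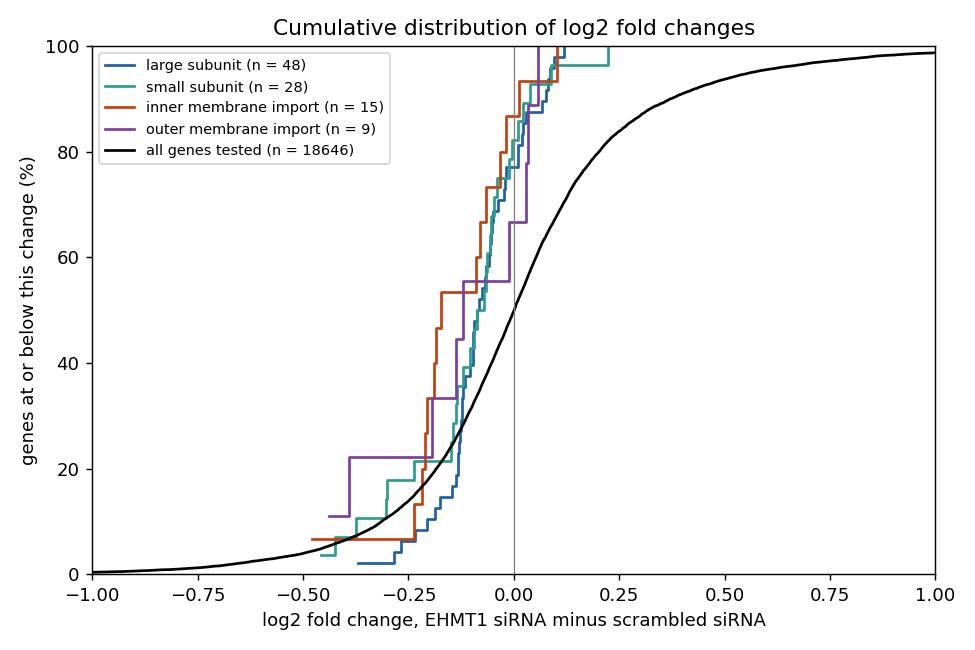
Share of genes (y axis, %) at or below each log2 fold change (x axis, EHMT1 siRNA minus scrambled siRNA) for the 4 classes and for all 18646 genes tested; genes beyond -1 and 1 are not drawn. The class curves run left of the curve of all genes near 0; the inner membrane import curve has its median at -0.17 and that of all genes at 0.00.

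In the outer membrane, the channel gene TOMM40 was the one called. It had 175.6, 165.6 and 173.8 CPM with EHMT1 siRNA, against 225.8, 248.7 and 223.6 CPM with scrambled siRNA. Each EHMT1 siRNA library lay well below each scrambled library, at 73.8% of the scrambled mean. The edgeR log2 fold change was -0.44 (SE 0.059, adjusted p = 0.000142); TOMM40 has 4 named pseudogenes. Its paralog TOMM40L was much lower in level, with 8.85, 9.38 and 10.3 CPM with EHMT1 siRNA and 10.8, 10.7 and 11.1 CPM with scrambled siRNA; its log2 fold change of -0.19 was not called (edgeR adjusted p = 0.193).

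None of the other tested TOM genes was called, and they lay on both sides of 0. TOMM22, a central receptor named here after its values were seen, had 97.5, 91.5 and 100.1 CPM with EHMT1 siRNA, against 112.0, 97.0 and 108.7 CPM with scrambled siRNA. Its groups overlap through scrambled library 2 (log2 fold change -0.14, edgeR adjusted p = 0.192), and without that library it was called lower, at -0.20. TOMM5 averaged 5.72 ± 0.222 CPM with EHMT1 siRNA and 6.19 ± 1.58 CPM with scrambled siRNA (SD, n = 3 each), a log2 fold change of -0.12. TOMM20, a receptor, had 162.6, 151.5 and 157.2 CPM with EHMT1 siRNA, against 165.8, 129.1 and 157.7 CPM with scrambled siRNA, groups that overlap, with scrambled library 2 the lowest of all (log2 fold change 0.06, the highest of the class). TOMM7 averaged 93.6 ± 4.08 CPM with EHMT1 siRNA and 91.5 ± 5.87 CPM with scrambled siRNA (SD, n = 3 each), a log2 fold change of 0.03. TOMM20L, a paralog of TOMM20, was near the limit of detection at 0.272 ± 0.0932 CPM with EHMT1 siRNA and 0.360 ± 0.0801 CPM with scrambled siRNA (SD, n = 3 each), and only 1.80% of its strand counts lay on its own strand; it overlaps TIMM9.

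Among the small chaperones of the intermembrane space, TIMM13, which works with TIMM8A, gave the lowest log2 fold change of all import genes. It had 77.3, 74.6 and 82.4 CPM with EHMT1 siRNA, against 106.6, 110.3 and 109.9 CPM with scrambled siRNA. The 2 groups are narrow and far apart, with EHMT1 siRNA at 71.7% of the scrambled mean. By edgeR the log2 fold change came to -0.48 (SE 0.058, adjusted p = 4.84e-05); 28.9% of its exon bases overlap LMNB2 and TMPRSS9. TIMM10, which carries membrane proteins together with TIMM9, had 29.5, 28.9 and 29.05 CPM with EHMT1 siRNA, against 35.3, 34.4 and 33.5 CPM with scrambled siRNA. The groups did not overlap; edgeR gave a log2 fold change of -0.24 (SE 0.063, adjusted p = 0.0195), a call that did not survive the removal of any 1 EHMT1 siRNA library. TIMM8A, the partner of TIMM13, had 20.4 ± 2.52 CPM with EHMT1 siRNA and 20.2 ± 1.23 CPM with scrambled siRNA (SD, n = 3 each; log2 fold change 0.01). TIMM8B, its paralog, had 52.3 ± 1.14 CPM with EHMT1 siRNA and 55.3 ± 2.89 CPM with scrambled siRNA (SD, n = 3 each; log2 fold change -0.08); neither was called.

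In the TIM23 complex, 2 genes were called. TIMM50, the receptor that takes precursors from the outer membrane channel, had 97.3, 92.6 and 98.2 CPM with EHMT1 siRNA, against 107.5, 113.4 and 112.2 CPM with scrambled siRNA. All EHMT1 siRNA libraries were lower (log2 fold change -0.21, SE 0.056, edgeR adjusted p = 0.0202), but the call needed all 3 of them. TIMM17A, a core subunit, had 112.4, 104.2 and 104.9 CPM with EHMT1 siRNA, against 137.5, 113.0 and 123.3 CPM with scrambled siRNA. The groups came within 1 CPM of each other, and the call (log2 fold change -0.22, SE 0.069, edgeR adjusted p = 0.0465) needed all 3 EHMT1 siRNA libraries and scrambled libraries 1 and 3. Its paralog TIMM17B had 33.1, 32.7 and 32.9 CPM with EHMT1 siRNA, inside the scrambled range of 30.05 to 41.0 CPM (log2 fold change -0.09, not called).

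TIMM23, the TIM23 subunit that gives the complex its name, averaged 110.6 ± 4.26 CPM with EHMT1 siRNA and 113.2 ± 6.33 CPM with scrambled siRNA (SD, n = 3 each; log2 fold change -0.03). TIMM23B, a closely related copy, averaged 7.38 ± 0.0694 CPM with EHMT1 siRNA and 6.86 ± 0.869 CPM with scrambled siRNA (SD, n = 3 each). At 0.10 its log2 fold change was the highest of the inner membrane import genes and was not called; reads shared between such copies make both values uncertain. The 11 inner membrane import genes that were not called had log2 fold changes from -0.21 to 0.10, of which 9 were below 0.

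**Figure D4:**
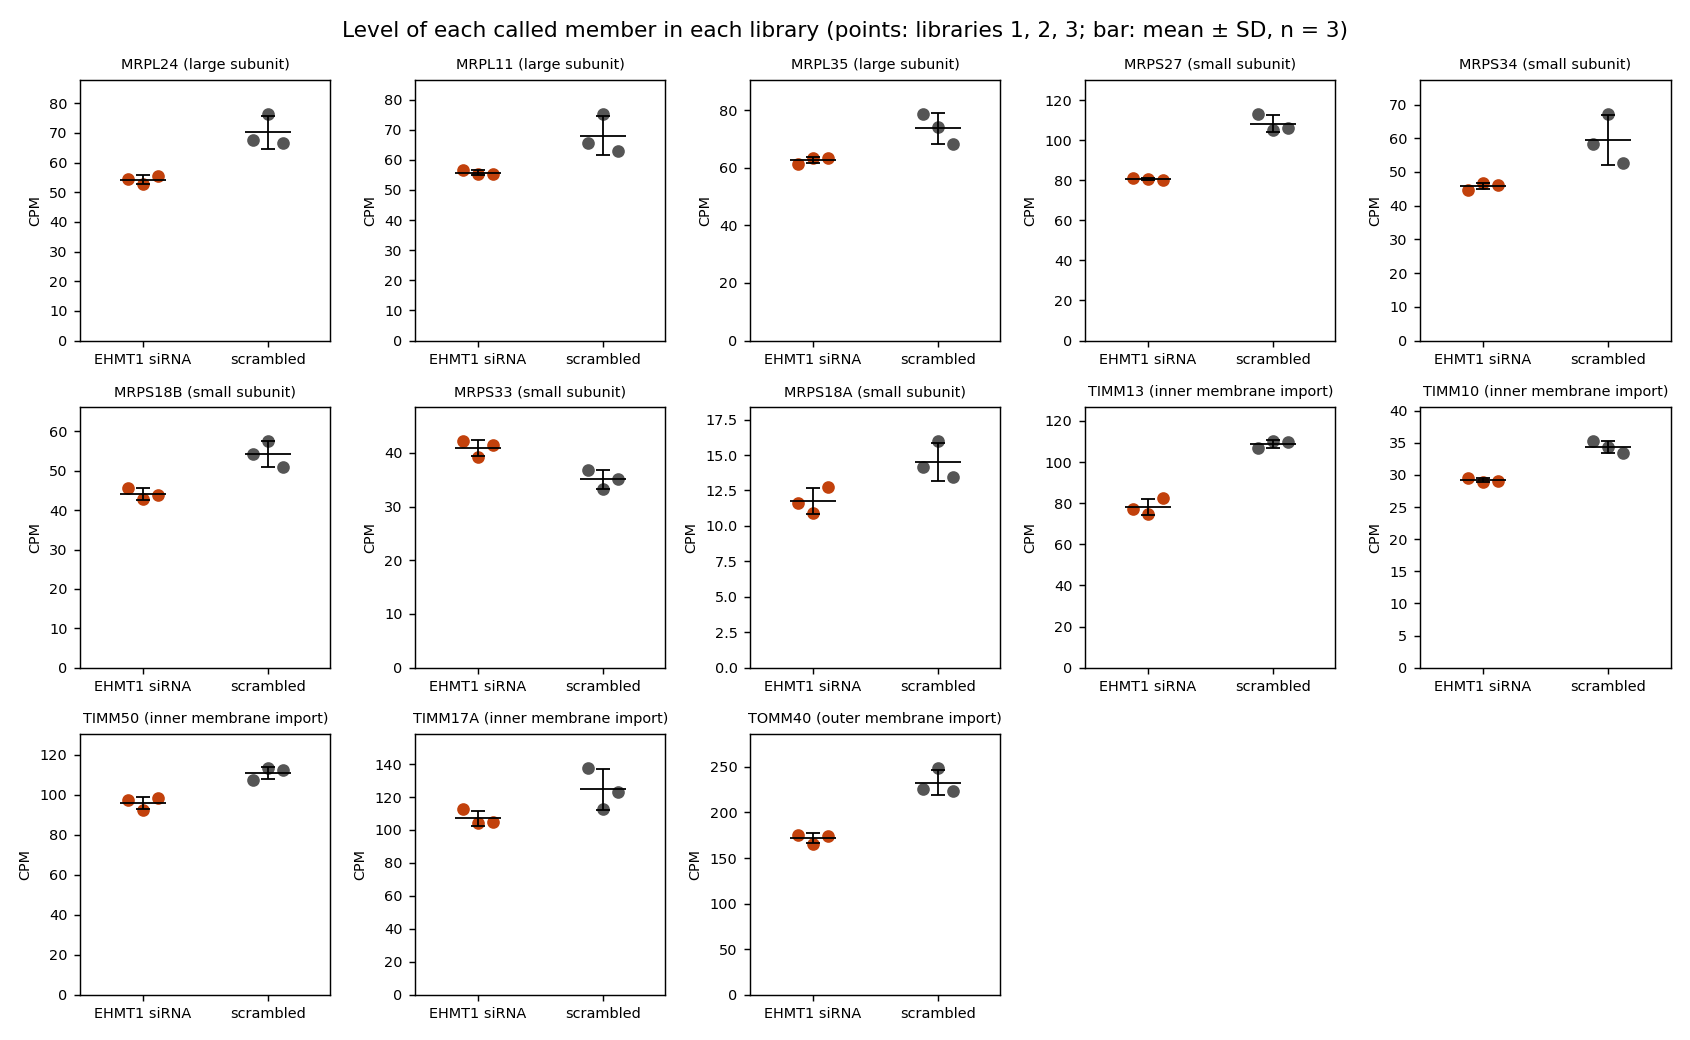
CPM (y axes, each from 0) of the 13 called genes in each library (points), with the mean and 1 SD (n = 3), EHMT1 siRNA on the left and scrambled siRNA on the right. The groups do not overlap in any panel; MRPS33 is the 1 gene with EHMT1 siRNA above, and scrambled libraries are the more scattered group in most panels.

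In the small subunit, MRPS27 and MRPS34 were the called genes that kept their call whichever library was left out. MRPS27, a protein with pentatricopeptide repeats, had 81.05, 80.82 and 80.003 CPM with EHMT1 siRNA, against 113.2, 105.3 and 106.1 CPM with scrambled siRNA. The 3 EHMT1 siRNA libraries were nearly equal, at 74.5% of the scrambled mean (log2 fold change -0.42, SE 0.056, edgeR adjusted p = 0.000118). MRPS34, a protein without a bacterial counterpart, had 44.7, 46.6 and 46.2 CPM with EHMT1 siRNA, against 58.3, 67.3 and 52.8 CPM with scrambled siRNA. Its scrambled libraries were spread out, and all lay above the EHMT1 siRNA libraries (log2 fold change -0.37, SE 0.076, edgeR adjusted p = 0.00368).

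A group of related genes carries the name MRPS18. MRPS18B had 45.7, 42.8 and 43.8 CPM with EHMT1 siRNA, against 54.2, 57.6 and 51.1 CPM with scrambled siRNA, which do not overlap (log2 fold change -0.30, SE 0.063, edgeR adjusted p = 0.00491); the call was lost without EHMT1 siRNA library 2. MRPS18A, whose protein is in fact part of the large subunit, had 11.6, 10.9 and 12.7 CPM with EHMT1 siRNA, against 14.1, 16.0 and 13.4 CPM with scrambled siRNA. EdgeR gave it a log2 fold change of -0.30 as well (SE 0.092, adjusted p = 0.0398), 47.0% of its exon bases overlap RSPH9, and the call needed all 3 EHMT1 siRNA libraries and scrambled library 2. MRPS18C was low and variable, at 4.34 ± 0.489 CPM with EHMT1 siRNA and 4.65 ± 1.81 CPM with scrambled siRNA (SD, n = 3 each), with groups that overlap and no call. Only 60.9% of its strand counts lay on its own strand, and 40.2% of its exon bases overlap ABRAXAS1. The ratio of MRPS18A to MRPS18B counts was 0.255, 0.255 and 0.290 with EHMT1 siRNA and 0.261, 0.278 and 0.263 with scrambled siRNA, so it overlapped between the groups.

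MRPS33 was the 1 gene of the 100 called higher. It had 42.2, 39.3 and 41.4 CPM with EHMT1 siRNA, against 36.8, 33.2 and 35.2 CPM with scrambled siRNA. The groups were apart by less than 3 CPM (log2 fold change 0.22, SE 0.065, edgeR adjusted p = 0.0314), and the call needed all 3 EHMT1 siRNA libraries and scrambled library 3. MRPS28 had a log2 fold change of -0.46, the lowest of the small subunit, but was not called (edgeR adjusted p = 0.0865): it had 1.92, 2.29 and 2.47 CPM with EHMT1 siRNA, against 3.33, 3.23 and 2.59 CPM with scrambled siRNA. MRPS16 (126.8 ± 3.13 CPM with EHMT1 siRNA and 125.0 ± 10.6 CPM with scrambled siRNA; SD, n = 3 each) and MRPS15 (89.9 ± 0.581 CPM with EHMT1 siRNA and 95.6 ± 2.82 CPM with scrambled siRNA) had log2 fold changes of 0.02 and -0.09.

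In the large subunit the called genes were MRPL24, MRPL11 and MRPL35. MRPL24, a protein named after the bacterial protein that starts assembly of the large subunit, had 54.6, 52.7 and 55.5 CPM with EHMT1 siRNA, against 67.5, 76.5 and 66.6 CPM with scrambled siRNA. The groups were apart, with EHMT1 siRNA at 77.4% of the scrambled mean (log2 fold change -0.37, SE 0.064, edgeR adjusted p = 0.0012). MRPL11, part of the region that binds translation factors, had 56.8, 55.3 and 55.2 CPM with EHMT1 siRNA, against 65.6, 75.3 and 63.0 CPM with scrambled siRNA. The groups did not overlap (log2 fold change -0.28, SE 0.067, edgeR adjusted p = 0.0103), and the call was lost without EHMT1 siRNA library 2 or 3. MRPL35 had 61.3, 63.4 and 63.5 CPM with EHMT1 siRNA, against 78.8, 74.2 and 68.2 CPM with scrambled siRNA. Its edgeR log2 fold change of -0.23 had an SE of 0.063 (adjusted p = 0.0205); it has 4 named pseudogenes, and the call needed all 3 EHMT1 siRNA libraries and scrambled library 1.

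The other 45 large subunit genes had log2 fold changes between -0.27 and 0.12, and 34 of them were below 0. The highest was that of MRPL41, with 79.96, 73.2 and 82.9 CPM with EHMT1 siRNA and 65.3, 73.0 and 78.9 CPM with scrambled siRNA, groups that overlap. MRPL51, the gene with the highest level per kb, averaged 92.2 ± 0.306 CPM with EHMT1 siRNA and 96.1 ± 4.51 CPM with scrambled siRNA (SD, n = 3 each), and MRPL30 averaged 69.7 ± 1.69 CPM with EHMT1 siRNA and 76.1 ± 3.58 CPM with scrambled siRNA; their log2 fold changes were -0.06 and -0.13, neither called.

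The libraries of the scrambled group were the more variable. The median coefficient of variation of the 100 genes was 3.30% among EHMT1 siRNA libraries and 6.90% among scrambled libraries, and it was larger in the scrambled group for 81 of the 100. The edgeR fit shares 1 dispersion between the groups.

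Genes that start next to a called gene on the opposite strand were not called. PTCD2, whose start lies 106 bases from that of MRPS27, averaged 25.0 ± 2.36 CPM with EHMT1 siRNA and 24.3 ± 4.10 CPM with scrambled siRNA (SD, n = 3 each), a log2 fold change of 0.04. EME2, 52 bases from MRPS34, had a log2 fold change of 0.14 and PPP1R10, 465 bases from MRPS18B, of 0.04; none of the 3 was called. Over all 37 such neighbours 3 were called lower, 3 higher and 29 not called, and 2 were not tested. The 6 called are 17.1% of the 35 tested, near the 15.5% of protein-coding genes tested (12.4% of all genes). Among the lower ones was TWNK, the mitochondrial DNA helicase, which starts 148 bases from MRPL43. MRPL43 itself was not called (log2 fold change -0.02). Of its exon bases 36.9% overlap SEMA4G and TWNK, and 75.0% of its strand counts lay on its own strand, so its level is uncertain.

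In the other lists of mitochondrial genes, every called gene was lower with EHMT1 siRNA. Over all genes 6.54% were called lower and 5.81% higher, and over protein-coding genes 8.49% lower and 6.99% higher. Each list is small, and nothing is read from its share of calls. Of 14 mitochondrial translation factors 2 were lower (14.3%) and 0 higher (median log2 fold change -0.11). They were SLIRP, which stabilises mitochondrial mRNA (63.9 ± 2.79 CPM with EHMT1 siRNA and 76.9 ± 2.70 CPM with scrambled siRNA; edgeR adjusted p = 0.00709), and the initiation factor MTIF2 (60.1 ± 0.041 CPM with EHMT1 siRNA and 71.3 ± 4.36 CPM with scrambled siRNA; edgeR adjusted p = 0.0125; SD, n = 3 each). The elongation factor TUFM had 163.2 ± 0.993 CPM with EHMT1 siRNA and 184.2 ± 13.6 CPM with scrambled siRNA (SD, n = 3 each) and MTRF1 7.27 ± 0.663 CPM with EHMT1 siRNA and 8.50 ± 0.362 CPM with scrambled siRNA, and neither was called. Of 17 mitochondrial aminoacyl-tRNA synthetases, which charge transfer RNA, 2 were lower (11.8%) and 0 higher (median -0.05), among them EARS2 (log2 fold change -0.29, edgeR adjusted p = 0.017). AARS2 and WARS2 both had log2 fold changes of -0.17 and were not called.

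Of 27 assembly factors of the mitochondrial ribosome 1 was lower (3.70%) and 0 higher (median -0.04). That gene was C1QBP, with 209.2 ± 0.567 CPM with EHMT1 siRNA and 255.2 ± 15.3 CPM with scrambled siRNA (SD, n = 3 each; log2 fold change -0.29, edgeR adjusted p = 0.00357). ERAL1 (-0.18), TFB1M (0.23) and MTG1 (-0.22) were not called. Of 5 ribosomal proteins that lack an MRP symbol 1 was lower (20%) and 0 higher (median -0.04), AURKAIP1 (-0.22, edgeR adjusted p = 0.0357), while PTCD3 (-0.15), CHCHD1 (0.14) and GADD45GIP1 (-0.04) were not called.

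Of 16 tested genes of the import motor, the processing peptidases and the intermembrane space pathway 2 were lower (12.5%) and 0 higher (median 0.00). HSPA9, the matrix chaperone that pulls precursors inward, had 452.2 ± 5.42 CPM with EHMT1 siRNA and 544.3 ± 36.0 CPM with scrambled siRNA (SD, n = 3 each; log2 fold change -0.27, edgeR adjusted p = 0.00684). AGK, a subunit of the TIM22 complex, had 38.0 ± 1.28 CPM with EHMT1 siRNA and 48.7 ± 1.87 CPM with scrambled siRNA (SD, n = 3 each; log2 fold change -0.36, edgeR adjusted p = 0.00109). GRPEL2 (-0.20) and GFER (-0.22) were not called, and DNAJC15 was not tested. None of the 6 genes of outer membrane sorting and insertion was called (median -0.06), with log2 fold changes of -0.14 for MTX3, -0.10 for MTCH2, -0.07 for SAMM50 and -0.05 for MTX1.

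The transcripts that the mitochondrial ribosome itself translates were not called either, in 0 of 13 (median -0.03). MT-CO3 had 4427 ± 93.5 CPM with EHMT1 siRNA and 4895 ± 680 CPM with scrambled siRNA (SD, n = 3 each); MT-ATP8, MT-ATP6 and MT-ND3 had log2 fold changes of -0.29, -0.13 and 0.12. Of 37 nuclear genes of respiratory complex I, 1 was lower (2.70%) and 0 higher (median -0.05): NDUFV1 (-0.20, edgeR adjusted p = 0.0334), with NDUFS5 (-0.15) and NDUFS1 (0.13) not called. Of 13 tested regulators of mitochondrial biogenesis 2 were lower (15.4%) and 0 higher (median -0.08). They were TWNK (56.4 ± 3.32 CPM with EHMT1 siRNA and 69.2 ± 4.49 CPM with scrambled siRNA; log2 fold change -0.29, edgeR adjusted p = 0.00714; SD, n = 3 each) and the transcription factor MYC (162.5 ± 4.30 CPM with EHMT1 siRNA and 189.8 ± 14.01 CPM with scrambled siRNA; log2 fold change -0.22, edgeR adjusted p = 0.0234; SD, n = 3 each). The factors YY1 (-0.09) and PPRC1 (-0.11) were not called, and PPARGC1A was not tested. Of these called genes AGK and C1QBP kept their calls without any 1 library; HSPA9, TWNK and EARS2 lost theirs without EHMT1 siRNA library 2 or 3, SLIRP without library 1 or 2, and MTIF2, MYC, NDUFV1 and AURKAIP1 without any 1 of the 3, AURKAIP1 also without scrambled library 3. EHMT2, the partner of EHMT1, averaged 91.7 ± 1.64 CPM with EHMT1 siRNA and 106.1 ± 7.77 CPM with scrambled siRNA (SD, n = 3 each; log2 fold change -0.21, edgeR adjusted p = 0.0334), and EHMT1 itself had a log2 fold change of -1.34 (edgeR adjusted p = 9.13e-09).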

How the data were processed

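Poly-A RNA of 6 RD libraries was made into libraries with the kit NEBNext Ultra, as the labels' protocols state. Tools listed in the submitters' processing notes are STAR 2.5, HTSeq 0.6.1, DESeq2, CASAVA and bcl2fastq, with build hg19. The authors deposited raw read counts per gene, with no normalization, in the layout of STAR's gene count table: an unstranded column, used here, and 1 column per strand, of which the second held 87.1% to 89.0% of strand counts. The identifiers are later than hg19, so gene coordinates are not given; GENCODE 29 held 58352 of the 61552 and was used for gene type, overlap and length, and 61399 had a name. Reads not assigned to a single gene (20.0% to 21.2%) were left out. In this layout they include reads that map to several places and reads that fit more than 1 gene. Genes that overlap others or have close copies can therefore lose reads. Without strand, reads of an antisense transcript that is not annotated cannot be told apart from those of the gene. Libraries of a group differed by more than sampling noise (chi-square per degree of freedom 2.80 to 18.7), and each was counted as 1 sample. That excess does not show that they came from separate cultures.

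Counts were analysed with edgeR 4.0.16 in R 4.3.3: filterByExpr (minimum count 10), TMM, a robust quasi-likelihood fit on group, and Benjamini-Hochberg adjustment over 18646 genes (threshold 0.05). SE is the size of the log2 fold change over the root of F. CPM uses TMM-scaled library sizes. The fit was tested on simulated data. The genes, the 9 lists and the tests were chosen with earlier results of these data known. Named genes were, per class, up to 8 called genes of smallest adjusted p, the 2 of highest level per kb, those of highest and lowest log2 fold change, the untested ones and the paralog groups, and up to 4 tested genes per list by adjusted p; EME2, PPP1R10, PTCD2, MRPL2, MRPS24, MRPL43, MRPS2, TIMM10B, TOMM22, TOMM5 and MRPL48 were added after their values were seen. Values of a few list genes are not reported here. Alternatives were RLE and upper quartile factors, 2 other filters, DESeq2 1.42.0, limma-voom (limma 3.58.1), a replicate block, each strand column, a threshold of 0.01, a GC content and length offset, and leaving out each library; class sums without called genes were added after seeing the data.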

Additional observations from a re-analysis of the deposited data

How the results depend on the processing

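Of 1134 values of 67 named genes under the alternatives, 87 lost their call and 30 gained one, and 1109 kept their sign. Of the 25 that changed sign, 4 belonged to called genes and 21 to genes not called; 14 came from the first strand column, which held the smaller part of the strand counts, 8 from leaving out scrambled library 2 and 1 each from leaving out EHMT1 siRNA library 1, EHMT1 siRNA library 3 and scrambled library 3. The 4 of called genes came from the first strand column, with log2 fold changes of -0.17 for MRPS33, 0.11 for TIMM10, 0.022 for SLIRP and 0.11 for EARS2. The second column held 96.8% of the strand counts of MRPS33 and 92.8% of those of TIMM10, and both kept their calls there. Few reads of these genes lay in the first column. That column gave 177 calls among all genes (2304 in the unstranded counts), with 0 large subunit genes lower, 0 small subunit genes higher, 0 lower and 1 inner membrane import gene lower; its class medians were 0.01 for the small subunit and 0.05 for outer membrane import. The outer membrane median was -0.06 with a 1 CPM filter and -0.04 in the second strand column. A threshold of 0.01 left 1017 calls, with 1 large subunit gene lower, 1 inner membrane import gene lower and 0 small subunit genes higher. A GC content and length offset, fitted on the 97.5% of genes with both values, gave 5 large subunit genes lower and 1 higher. Over all genes it gave 1784 lower and 1634 higher. Without 1 library, calls ranged from 936 to 3548 for all genes, of which 484 to 1923 were lower. Lower calls ranged from 1 to 11 for the large subunit and 2 to 5 for the small subunit. They were 1 to 5 for inner membrane import and 1 to 2 for outer membrane import. Higher small subunit calls were 0 to 1. The largest counts for all genes (3548) and the large subunit (11) came without scrambled library 2; without EHMT1 siRNA library 1, 2 or 3, 1172, 936 and 1010 genes were called. The cause was not tested. Lower calls among the 100 genes were 13 with RLE factors, 10 with upper quartile factors, 13 with no filter and 11 with a 1 CPM filter. They were 13 with DESeq2, 11 with limma-voom and 14 with the second strand column. Over all genes the lower calls in the same order were 1236, 1036, 1298, 1182, 1357, 1143 and 1239. With no filter 36312 genes were tested, and with the 1 CPM filter 14327. A replicate block gave 3106 calls among all genes, 1632 of them lower, and 16 lower calls among the 100. Deviations of same-numbered libraries correlated at 0.06, 0.02 and 0.02. Each EHMT1 siRNA library correlated best with the scrambled library of its number, while scrambled library 2 correlated best with EHMT1 siRNA library 3. Correlations this small cannot tell whether the numbers pair the libraries. Depth limits the genes near 0 counts, and 3 libraries a group limit calls of small changes.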
